A study of Mus musculus with 15 samples.

Results

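Necroptosis and inflammasome genes were examined in microglia, the resident macrophages of the brain, sorted from young mice, old mice and old mice given PLX5622. The 8 genes considered were Ripk3, Ripk1, Mlkl, Casp8, Casp1, Gsdmd, Nlrp3 and Pycard, and a gene was described if its symbol was among those of the expression table. By that rule 6 of the 8 were described, out of 13834 genes in the table and 13175 genes tested. Mlkl and Casp1 were not analysed here, since neither their symbols nor their synonyms head a line of the table used. The genes were chosen by their symbols and known roles and by having passed the authors' filter on the table's expression values, with no threshold on a difference between groups. The list itself was drawn up with earlier results of these data in view, so the levels that first drew attention to it are descriptions and no independent support.

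The series asks what sets apart the microglia of old brains, and RNA was sequenced from 15 sorted libraries in 4 groups. The PLX5622 group (n = 4) came from 18-month-old mice that received PLX5622, a compound that blocks CSF1R, the receptor on which microglia depend for survival. The AF-high group (n = 5) and the AF-low group (n = 3) were microglia of high and of low autofluorescence, the light that cells emit without any dye, from untreated mice that were also 18 months old. The young group (n = 3) came from untreated mice that were 3 months old. No division by autofluorescence is given for the young or the PLX5622 group. No genetic alteration is given for any group. Strain, sex, sort markers, dose and schedule of PLX5622, and whether a library came from 1 animal or a pool are not stated. The libraries are called biological replicates, and where they did not come from separate animals the p-values measure only the spread between libraries.

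Necroptosis is a lytic form of cell death. In it the kinase RIPK1, once released from a TNF receptor complex, can engage the kinase RIPK3, which phosphorylates the membrane-rupturing protein MLKL. Caspase-8 cleaves both kinases and so holds necroptosis back. Pyroptosis is the other lytic route: the sensor NLRP3 and the adaptor ASC (the product of Pycard) assemble an inflammasome that activates caspase-1, which cuts gasdermin D (Gsdmd) into a pore-forming fragment and processes interleukin-1 beta. Microglia are the main cells of the brain known to carry the NLRP3 inflammasome.

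All 18 markers of microglia had a line in the table, and their summed level was 15790 to 17040 TPM in PLX5622 libraries, 17130 to 20570 TPM in AF-high libraries, 13660 to 17710 TPM in AF-low libraries and 18090 to 19880 TPM in young libraries. TPM, an abundance expressed relative to the total of its library, is corrected for transcript length, so levels can be set side by side between genes. It keeps no record of read numbers, so the depth behind each value is unknown. Libraries of the AF-high and AF-low groups lay farther from their group mean over all genes (root mean square 0.364 to 0.56 on the log2(TPM + 1) scale) than PLX5622 and young libraries did (0.228 to 0.264). Summed choroid plexus and ependymal markers (5 of 12 in the table) reached at most 368.8 TPM in any PLX5622, AF-high or AF-low library. They summed to 8747, 5767 and 210.9 TPM in young 1, young 2 and young 3. In bulk RNA of sorted cells, a lower share of cells that carry a transcript and less of that transcript per cell cannot be told apart.

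The promoters of the 2 kinases are shown first, since RIPK1 and RIPK3 act as partners while their transcripts differed widely in level and in spread. Ripk3 lies at chr14:55784995-55788865 on the minus strand of GRCm38 and overlaps no other annotated gene. Ripk1 lies at chr13:34002363-34037147 on the plus strand and overlaps Serpinb6a on the opposite strand and 2 processed pseudogenes, so some reads there could belong to a neighbour. Each RefSeq window (build GRCm38.p6) runs from 250 bases before to 50 bases after the first annotated start, 5′ to 3′ on the strand of the gene. It is chr14:55788808-55789107 for Ripk3 and chr13:34002113-34002412 for Ripk1, and capitals mark motif matches on either strand.
Ripk3: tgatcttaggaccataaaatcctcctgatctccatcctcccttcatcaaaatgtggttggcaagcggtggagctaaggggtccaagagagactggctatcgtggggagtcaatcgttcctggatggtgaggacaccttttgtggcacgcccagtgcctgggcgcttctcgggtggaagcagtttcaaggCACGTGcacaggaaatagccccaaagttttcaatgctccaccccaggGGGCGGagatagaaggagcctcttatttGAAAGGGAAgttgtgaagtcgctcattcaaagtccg
Ripk1: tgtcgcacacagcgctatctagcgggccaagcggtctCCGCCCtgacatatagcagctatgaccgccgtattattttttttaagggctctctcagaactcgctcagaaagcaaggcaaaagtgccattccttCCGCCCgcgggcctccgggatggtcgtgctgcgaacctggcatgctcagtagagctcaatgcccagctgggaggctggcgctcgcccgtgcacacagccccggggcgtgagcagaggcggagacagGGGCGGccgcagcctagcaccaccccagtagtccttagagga
In the Ripk3 window the capitals are an E-box (CACGTG) at -61, a GC box (GGGCGG) at -14 and an interferon-response-like motif (GAAANNGAA) at 15, counted from the start. In the Ripk1 window they are 3 GC boxes, and there was no match to the E-box or to GAAANNGAA there. A second RefSeq start of Ripk1, with the window chr13:34002624-34002923, had 4 GC boxes, 36 CpG dinucleotides and a GAAANNGAA match at -5, so the windows of the 2 kinases do not differ as a whole in holding that motif. The TATA box (TATAAA) had no match in any of the 3 windows. The Ripk3 window held 10 CpG dinucleotides and the Ripk1 window printed 22, against a median of 7 over all 32544 promoter windows of the table. Over those windows, a GC box was found in 35.9%, an E-box in 7.2%, a TATA box in 13.6% and GAAANNGAA in 8.5%. The motifs were chosen after the sequences had been seen, do not overlap one another in these windows, and are matches of letters only.

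Ripk3, the kinase that commits a cell to necroptosis, was the one gene of the 6 whose level differed by a large factor between groups. It stood at 3.69, 2.35, 3.68 and 4.57 TPM in the PLX5622 libraries, against 16.55, 8.79, 17.6, 19.5 and 16.0 TPM in the AF-high libraries. Every PLX5622 library lay below every AF-high library. In the AF-low libraries Ripk3 stood at 30.6, 12.7 and 7.13 TPM, and in the young libraries at 3.28, 5.82 and 4.62 TPM. All AF-high and AF-low libraries lay above all young libraries, while the PLX5622 and young libraries overlapped, and the AF-low group spanned the whole AF-high range and more.

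**Figure D1:**
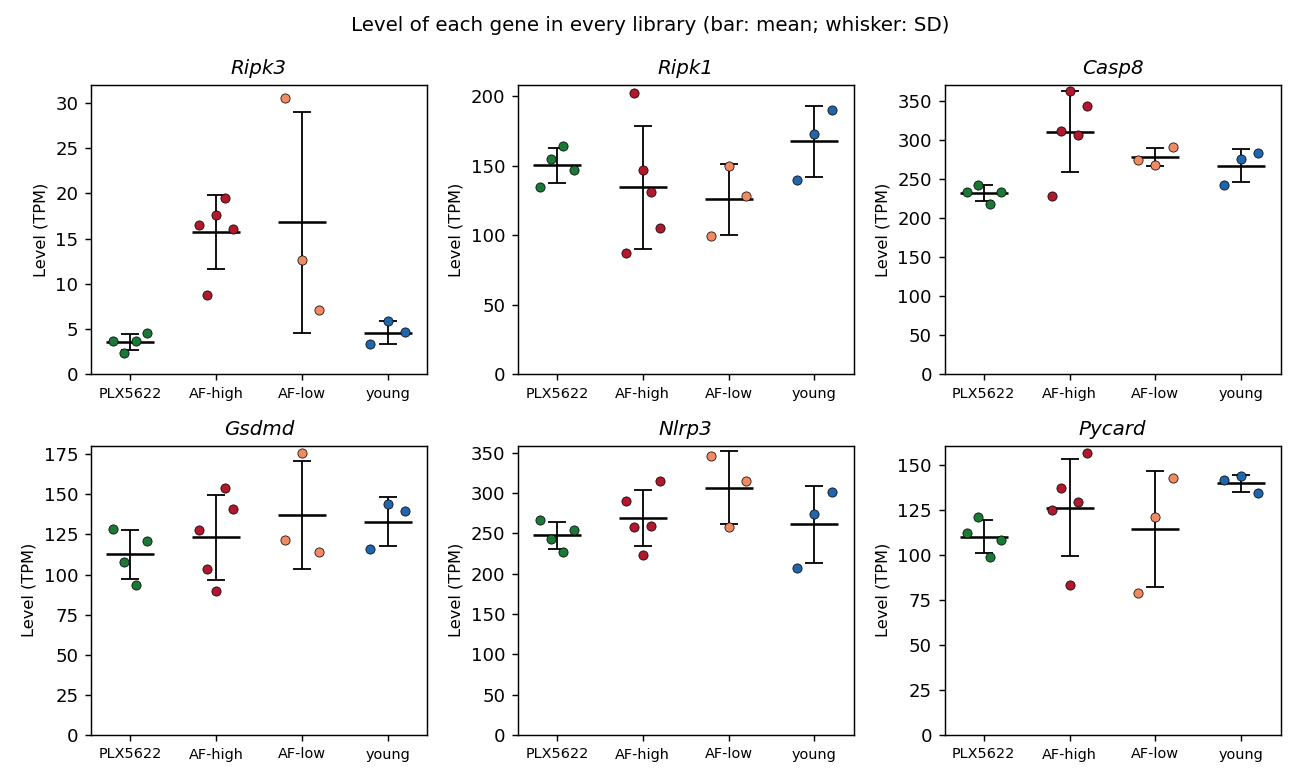
Level of each of the 6 genes in TPM (y axis, from 0, a separate scale for each gene) in every library of the PLX5622, AF-high, AF-low and young groups (x axis). Points are libraries, bars the group mean and whiskers the SD. Only Ripk3 has AF-high and AF-low libraries (7.13 to 30.6 TPM) wholly above PLX5622 and young libraries (2.35 to 5.82 TPM). The groups were joined in this way after the values were seen, and the share of all genes so separated was not counted.

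Ripk3 was lower in PLX5622 microglia, for which no division by autofluorescence is given, than in AF-high microglia. It averaged 3.57 ± 0.913 TPM in the PLX5622 group (SD, n = 4) and 15.7 ± 4.08 TPM in the AF-high group (SD, n = 5), a ratio of means of 0.228. The difference was -1.85 ± 0.33 on the log2(TPM + 1) scale (SE; 95% interval -2.56 to -1.14; limma adjusted p = 0.0289 over all genes tested). With a pseudocount of 1 this scale understates the change of a gene at such a low level. Ripk3 was 1 of 83 genes called in this comparison, and 0.63% of all tested genes were called, 21 higher and 62 lower (0.471%) in PLX5622. After quantile normalization the split over all genes was 35 higher and 36 lower, and Ripk3 was among the lower ones.

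The Ripk3 call depended on the setting. It held in 17 of 25 alternative settings and its sign in all 25, with log2 differences between -2.09 and -1.71 and adjusted p between 0.00729 and 0.114. Of the 8 settings that lost it, 7 left out libraries and 1 kept all 15 under another model. Without any 1 of the 4 PLX5622 libraries the adjusted p was 0.114, 0.0906, 0.105 and 0.0539, and without AF-high 5 or young 3 it was 0.0583 and 0.053. The 3 libraries with the lowest array weights were AF-low 1, AF-high 2 and AF-high 3, at 0.4, 0.31 and 0.37. Of these, AF-high 2 had the least Ripk3 of its group and AF-low 1 the most of all 15 libraries. With these 3 left aside, the Ripk3 difference was -2.02 with a limma adjusted p of 0.0087. The weights were estimated from the spread of these same values, and leaving out AF-high 2 in itself widens the difference. Over all genes the number called rose from 83 to 295. The smaller p is therefore no independent support. With young 1 and young 2 left aside, the libraries with the highest choroid plexus and ependymal sums, the Ripk3 difference was -1.85. No young library enters that difference, only the shared spread. This setting was among those that lost the call, and it leaves 1 young library.

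**Figure D2:**
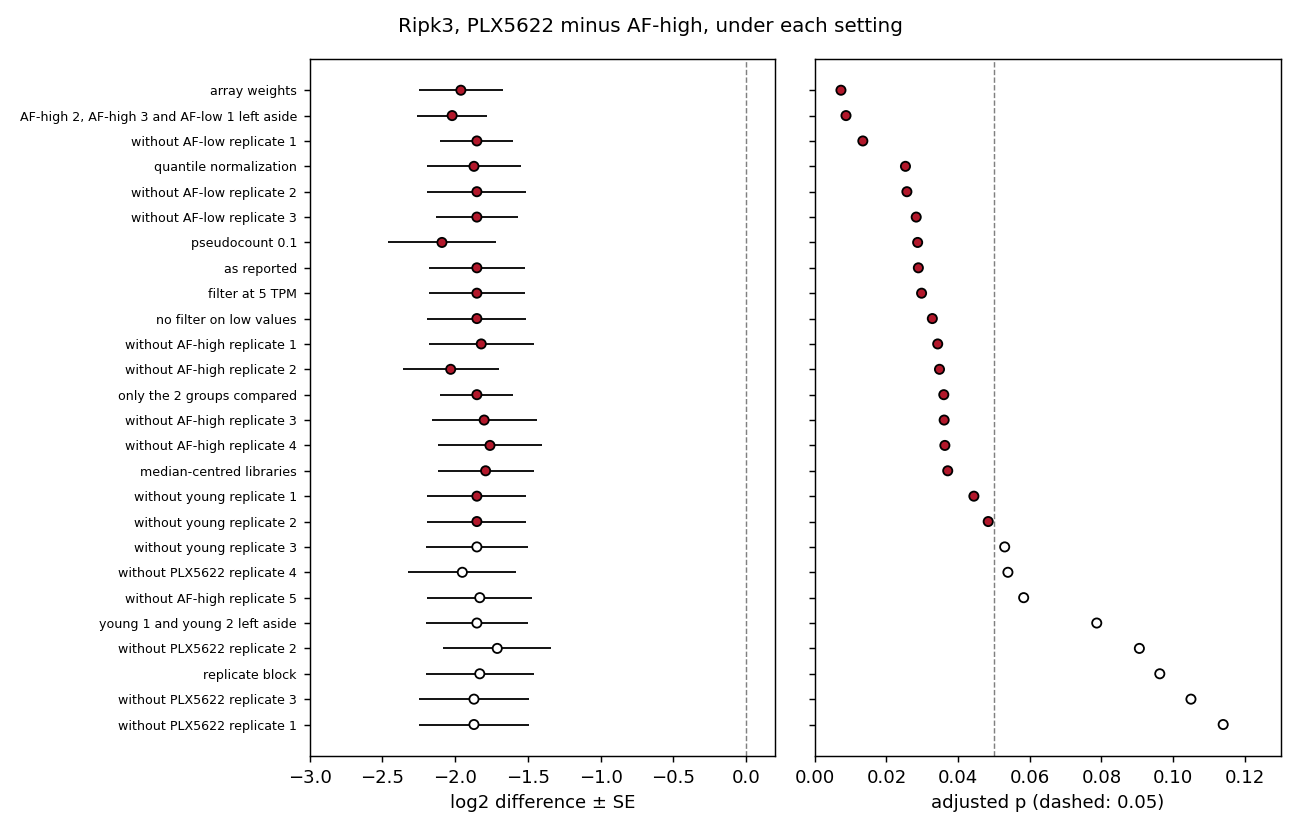
Ripk3 difference, PLX5622 minus AF-high, in log2(TPM + 1) with its SE (left x axis) and limma's adjusted p (right x axis; dashed line at 0.05) under each setting (y axis). The difference lies between -2.09 and -1.71 throughout, and the adjusted p crosses the dashed line in 8 of 25 alternatives.

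The other Ripk3 comparisons did not pass the threshold. Against AF-low microglia (16.8 ± 12.3 TPM, SD, n = 3), the PLX5622 group was lower by a ratio of means of 0.213, with a log2 difference of -1.76 ± 0.38 (SE; 95% interval -2.57 to -0.95; limma adjusted p = 0.0858). AF-high microglia differed from young microglia (4.58 ± 1.27 TPM, SD, n = 3) by 1.56 ± 0.36 (SE; 95% interval 0.79 to 2.34; limma adjusted p = 0.123), a ratio of means of 3.43. For AF-low against young microglia the difference was 1.47 ± 0.41 (SE; 95% interval 0.61 to 2.34; limma adjusted p = 0.194), a ratio of means of 3.67. Both AF-low values leaned on AF-low 1, the library with the highest Ripk3 level of all 15. Without it the AF-low mean was 9.90 TPM. The PLX5622 minus AF-low difference was then -1.23 (limma adjusted p = 0.234) with a ratio of means of 0.361. The AF-low minus young difference was then 0.94 (limma adjusted p = 0.466) with a ratio of 2.16. With AF-low 1 kept but young 1 and young 2 left aside, AF-high minus young was 1.53 and AF-low minus young 1.44. These 2 values rest on 1 young library.

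For AF-high against AF-low microglia the Ripk3 difference was 0.09 ± 0.36 (95% interval -0.68 to 0.87; limma adjusted p = 0.965), and for PLX5622 against young microglia it was -0.28 ± 0.38 (95% interval -1.09 to 0.53; limma adjusted p = 0.979). Both intervals are wide, so likeness between these groups is not shown. By mean level the order was AF-low, AF-high, young and PLX5622, but without AF-low 1 the mean of the AF-low group (9.90 TPM) was below that of the AF-high group, and the AF-high minus AF-low difference was 0.62. AF-low and AF-high, and young and PLX5622, did not differ beyond their spread, and the step between AF-high and young separated every library without passing the test. These comparisons share libraries, so their values are not independent of each other.

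Markers of border-associated macrophages, the macrophages of the meninges and vessels, stood in much the same order of groups as Ripk3. All 12 had a line in the table, the defining ones (Mrc1, Cd163, Lyve1, Pf4) among them, and they summed to 186.2 to 235 TPM in PLX5622 libraries, 331.7 to 462.4 TPM in AF-high libraries, 476.4 to 617.4 TPM in AF-low libraries and 247.4 to 313.3 TPM in young libraries. AF-low 1 held the highest sum as well as the highest Ripk3 level, and also the highest sums of monocyte (96.37 TPM) and endothelial (146.5 TPM) markers. Within the AF-high group the order differed. AF-high 4 and AF-high 3 had the most Ripk3 (19.5 and 17.6 TPM) and the lowest border-associated macrophage sums (331.7 and 332.7 TPM). AF-high 2 had the least Ripk3 (8.79 TPM) with a sum of 439.2 TPM. Numbered gene models took 17.23 to 24.12% of all TPM in PLX5622 libraries and 9.42 to 12.58% in AF-high libraries. Mitochondrial transcripts took 1.571 to 2.362% in PLX5622 libraries and 2.372 to 7.657% in AF-high libraries. Their part in the Ripk3 result was not tested.

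Ripk1, the kinase upstream of RIPK3 that also relays TNF signals for survival, was far more abundant, at a mean of 143.6 TPM over the 15 libraries against 10.5 TPM for Ripk3. It stood at 135, 155, 164 and 147 TPM in PLX5622 libraries and at 86.9, 202.5, 147, 131 and 105 TPM in AF-high libraries. In AF-low libraries it stood at 99.2, 150.0 and 128 TPM, and in young libraries at 140.1, 173 and 190.5 TPM. The lowest and the highest Ripk1 library both belonged to the AF-high group, which therefore spanned all other groups. Means were 150.2 ± 12.4 TPM in PLX5622, 134.5 ± 44.5 TPM in AF-high, 126 ± 25.5 TPM in AF-low and 168 ± 25.5 TPM in young microglia (SD), and limma called Ripk1 in 0 of 6 comparisons, in 0 of which the unadjusted p was under 0.05. By mean the order was young, PLX5622, AF-high and AF-low, with overlap between all neighbours.

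Because TPM is a level per length, the Ripk3 level can be given as a share of the Ripk1 level in the same library. That share was 2.73, 1.52, 2.24 and 3.11% in PLX5622 libraries and 19.0, 4.34, 12, 14.9 and 15.2% in AF-high libraries. In AF-low libraries it was 30.8, 8.45 and 5.56%, and in young libraries 2.34, 3.37 and 2.43%. Each AF-high and AF-low library lay above each PLX5622 and young library here too, although AF-high 2, which held the most Ripk1, came close to the young range. How often other genes separate the libraries in this way was not counted. As this share reuses the Ripk3 levels, it was given no test.

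**Figure D3:**
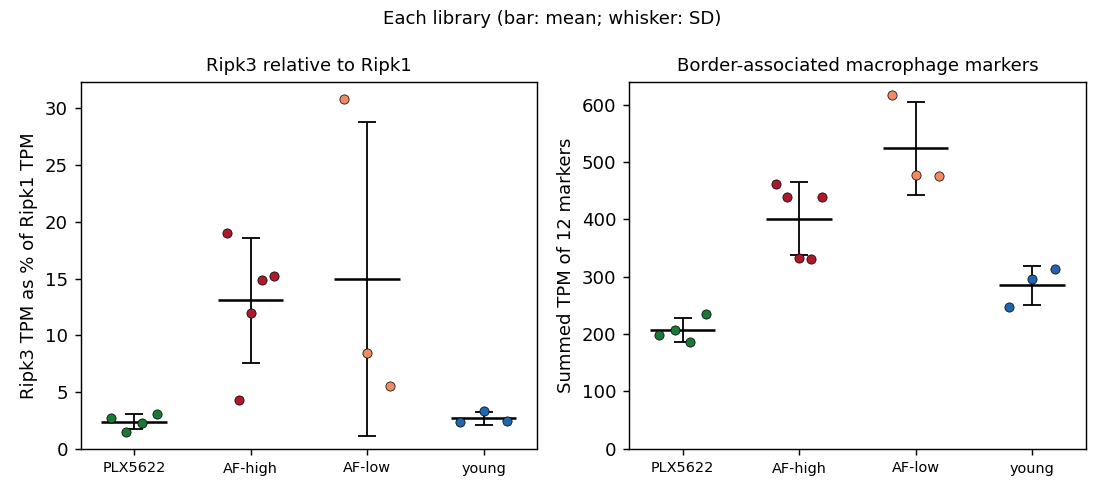
Ripk3 TPM as a percentage of Ripk1 TPM (left y axis) and the summed TPM of 12 border-associated macrophage markers (right panel, y axis) in every library of the PLX5622, AF-high, AF-low and young groups (x axis); bars are means and whiskers SD. The share lies between 1.52 and 3.37% in PLX5622 and young libraries and between 4.34 and 30.8% in AF-high and AF-low libraries, and the marker sum is also lowest in PLX5622 libraries.

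Casp8, the protease that restrains necroptosis and starts death-receptor apoptosis, had the highest mean level of the 6 genes (274.5 TPM over all libraries) and a narrow spread. It stood at 234, 243, 218 and 234 TPM in PLX5622 libraries and at 228, 311, 364, 306 and 344 TPM in AF-high libraries. In AF-low libraries it stood at 275, 268 and 291 TPM, and in young libraries at 243, 275 and 283 TPM. All 4 PLX5622 libraries lay below every AF-low and every young library, with 242.8 TPM in PLX5622 2 against 242.9 TPM in young 1 as the closest pair, and AF-high 1 fell among the PLX5622 libraries.

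The largest Casp8 difference was between PLX5622 (232 ± 10.1 TPM, SD, n = 4) and AF-high microglia (311 ± 51.9 TPM, SD, n = 5). By mean level the order was AF-high, AF-low, young and PLX5622. The difference was -0.40 ± 0.12 on the log2 scale (SE; 95% interval -0.67 to -0.14) and did not pass the threshold (limma adjusted p = 0.135). Without AF-high 1 it was -0.51 with an adjusted p of 0.0325. This contrast was singled out after its values were seen.

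Nlrp3, the inflammasome sensor, stood at 267, 243, 227 and 254 TPM in PLX5622 libraries and at 289.9, 257.5, 224, 259.6 and 315 TPM in AF-high libraries. In AF-low libraries it stood at 347, 257.5 and 315 TPM, and in young libraries at 207.5, 274 and 302 TPM. The highest library was an AF-low one and the lowest a young one, and all 4 groups overlapped. Group means were 248 ± 17.0 TPM in PLX5622, 269 ± 34.8 TPM in AF-high, 306 ± 45.2 TPM in AF-low and 261 ± 48.4 TPM in young microglia (SD), and neighbours in the order AF-low, AF-high, young and PLX5622 did not differ beyond their spread.

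Pycard, which encodes the adaptor ASC, stood at 112, 121, 98.7 and 108 TPM in PLX5622 libraries and at 125, 137, 83.1, 129 and 157 TPM in AF-high libraries. In AF-low libraries it stood at 79.1, 121 and 143 TPM, and in young libraries at 142, 144 and 135 TPM. The young libraries were the most alike and all lay above the 4 PLX5622 libraries, while AF-high and AF-low libraries overlapped both. Group means were 110.0 ± 9.21 TPM in PLX5622, 126 ± 27.1 TPM in AF-high, 114 ± 32.4 TPM in AF-low and 140.0 ± 4.69 TPM in young microglia (SD). In the order young, AF-high, AF-low and PLX5622, neighbours did not differ beyond their spread.

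Gsdmd, the pore-forming executioner of pyroptosis, stood at 128.5, 108, 93.6 and 121 TPM in PLX5622 libraries and at 128, 103.5, 89.4, 154 and 141 TPM in AF-high libraries. In AF-low libraries it stood at 121, 176 and 114 TPM, and in young libraries at 116, 144 and 139.5 TPM. The groups overlapped in every pairing, in the order AF-low, young, AF-high and PLX5622 by mean. Means were 113 ± 15.3 TPM in PLX5622, 123 ± 26.6 TPM in AF-high, 137 ± 33.8 TPM in AF-low and 133 ± 15.1 TPM in young microglia (SD).

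Across the 15 libraries the coefficient of variation was 77.7% for Ripk3, against 22.2% for Ripk1, 18.5% for Gsdmd and for Pycard, 15.7% for Casp8 and 14.3% for Nlrp3. The highest Ripk3 level was 13 times the lowest, a factor that was between 1.66 and 2.33 for the other 5 genes. In mean level Ripk3 lay above 42.9% of the genes in the table and the other 5 above 90.5 to 95.9%. All 6 genes had at least 1 TPM in every library, so the filter on low values did not select among them.

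Over the 6 comparisons, the 5 genes other than Ripk3 gave 30 differences, of which limma called 0 (smallest adjusted p 0.135) and 1, Casp8 in PLX5622 against AF-high microglia, had an unadjusted p under 0.05. Those differences lay between -0.42 and 0.27 on the log2 scale, and their 95% intervals between -0.95 and 0.77, so these libraries leave room for differences up to those bounds.

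In PLX5622 against AF-high microglia, 1 of the 6 genes was called (0.63% of all genes) and 2 had an unadjusted p under 0.05 (15.3% of all genes). In the same comparison 1 of 6 had ranges that did not overlap, as did 6.55% of all tested genes, 4.18% with the PLX5622 libraries lower. The median difference of the 6 was -0.14 in log2, against -0.02 over all tested genes. In PLX5622 against AF-low microglia, limma called 0 of the 6 (0.144% of all genes were called) and 1 had an unadjusted p under 0.05 (14.3% of all genes). Ranges were apart for 2 of 6, Ripk3 and Casp8, both lower, against 16.2% of all genes apart in either direction and 10.9% apart and lower. The median was -0.26, against -0.05 over all genes.

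In PLX5622 against young microglia limma called 0 of the 6 (0.0911% of all genes were called), and 0 had an unadjusted p under 0.05 (5.23% of all genes). Casp8 and Pycard, 2 of 6, were lower with ranges apart, against 16% of all genes apart in either direction and 12.7% apart and lower. Pycard had the smallest p, with a difference of -0.35 ± 0.21 (SE; 95% interval -0.79 to 0.09; limma adjusted p = 0.979). The median of all genes was itself -0.11 in this comparison, and with libraries centred on their medians the Pycard difference was -0.23. All 6 genes had a difference below 0 before that centring, with a median of -0.22, whereas with it Nlrp3 was at 0.06, and Nlrp3 was at 0.05 without young 3.

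Among the comparisons of untreated groups, limma called 0 of the 6 in AF-high against young microglia, where 0% of all genes were called and 1446 genes (11%) had an unadjusted p under 0.05. Of the 6, Ripk3 alone had an unadjusted p under 0.05 and ranges apart, against 7.78% of all genes with ranges apart and 2.63% with AF-high higher. In AF-low against young microglia 0 of the 6 were called (0.0455% of all genes, limma), and 1 of 6, again Ripk3, had ranges apart and an unadjusted p under 0.05, against 19.3% of all genes with ranges apart, 8.25% with AF-low higher, and 11.8% at an unadjusted p under 0.05. The medians of the 6 were -0.04 in AF-high against young and 0.04 in AF-low against young microglia, against -0.08 and -0.04 over all genes.

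In AF-high against AF-low microglia, the comparison of autofluorescence within old brains, limma called 0 of the 6 and 0% of all genes, with 1082 genes (8.21%) at an unadjusted p under 0.05. None of the 6 had an unadjusted p under 0.05 or ranges apart, against 2.76% of all genes with ranges apart. Nlrp3 had the smallest p, at -0.18 ± 0.15 (SE; 95% interval -0.5 to 0.13; limma adjusted p = 0.761), and its value was 0.01 when AF-low 1, AF-high 2 and AF-high 3 were left out together. The median of the 6 was 0.07, against -0.04 over all genes.

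**Figure D4:**
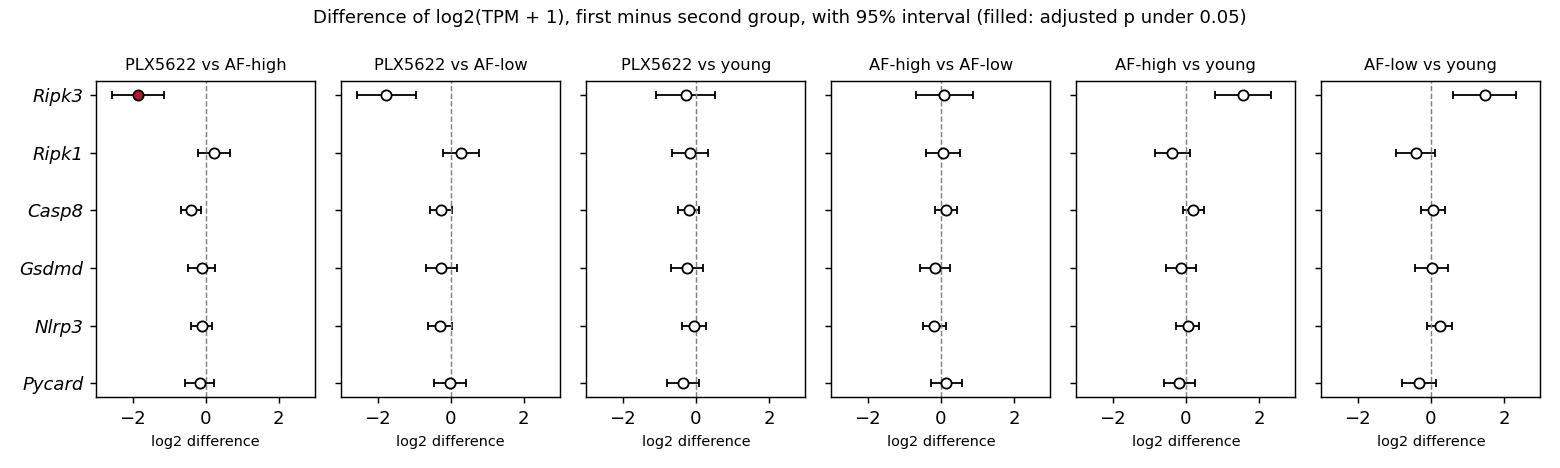
Difference of log2(TPM + 1), first minus second group, with its 95% interval (x axis) for each of the 6 genes (y axis) in the 6 comparisons (panels). Filled points passed limma's adjusted p of 0.05, which only Ripk3 in PLX5622 against AF-high microglia (-1.85) did, and the 30 points of the other 5 genes lie between -0.42 and 0.27.

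The wider pathway was described with 5 lists written from general knowledge, of which 99 of 106 genes were in the table and tested. In none of the 6 comparisons did limma call any of the 99. At an unadjusted p under 0.05 there were 20 of 99 in PLX5622 against AF-high microglia (20.2%, against 15.3% of all genes), 18 in PLX5622 against AF-low (18.2%, against 14.3%) and 6 in PLX5622 against young (6.06%, against 5.23%). There were 19 in AF-high against young (19.2%, against 11%), 14 in AF-low against young (14.1%, against 11.8%) and 6 in AF-high against AF-low microglia (6.06%, against 8.21%).

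The first list, the TNF receptor complex and the regulators of RIPK1, had 25 of 25 genes tested. In PLX5622 against AF-high microglia limma called 0 of them in either direction, with 8 values above and 17 below 0 and a median of -0.12 (all genes -0.02). Tnf, the cytokine that sets up the complex, averaged 330 ± 53.1 TPM in PLX5622, 355 ± 104 TPM in AF-high, 369.8 ± 132 TPM in AF-low and 189 ± 5.78 TPM in young microglia (SD). The Tnf difference between AF-high and young microglia was 0.86 ± 0.25 (SE; limma adjusted p = 0.234). Cflar, whose product c-FLIP pairs with caspase-8 and blocks its full activation, averaged 496 ± 38.2 TPM in PLX5622, 627 ± 32.4 TPM in AF-high, 666 ± 157 TPM in AF-low and 506 ± 26.6 TPM in young microglia (SD).

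The list of activators and regulators of RIPK3 and MLKL had 18 of 20 genes tested and 0 called by limma in PLX5622 against AF-high microglia, with 3 values above and 15 below 0 and a median of -0.30. The same list had 13 above and 5 below 0 in AF-high against young microglia (median 0.17, all genes -0.08), a comparison that shares the AF-high libraries. AF-low microglia were alike, with 14 above and 4 below 0 against young microglia (median 0.22, all genes -0.04). In PLX5622 against AF-low microglia 2 were above and 16 below 0 (median -0.33, all genes -0.05). PLX5622 against young microglia also had 3 above and 15 below 0, with a median of -0.13 close to the -0.11 of all genes. Ticam1, whose product TRIF links TLR3 and TLR4 to RIPK3, averaged 35.5 ± 2.51 TPM in PLX5622, 66.2 ± 15.7 TPM in AF-high, 73.2 ± 21.3 TPM in AF-low and 43.2 ± 2.31 TPM in young microglia (SD). Its difference between PLX5622 and AF-high microglia, -0.85 ± 0.19 (SE), had the smallest adjusted p of the 99 genes in any comparison (limma, 0.0541), and against AF-low microglia the value was -0.98 ± 0.21 (limma adjusted p = 0.0858).

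Tlr4, the receptor for bacterial lipopolysaccharide, averaged 70.5 ± 5.78 TPM in PLX5622, 113.5 ± 21.6 TPM in AF-high, 114 ± 33.5 TPM in AF-low and 77.0 ± 8.28 TPM in young microglia (SD), with a PLX5622 minus AF-high difference of -0.66 ± 0.17 (SE; limma adjusted p = 0.0779). Zbp1, a nucleic acid sensor that can engage RIPK3 without RIPK1, was low and uneven, at 5.38 ± 2.01 TPM in PLX5622, 4.99 ± 5.05 TPM in AF-high, 4.75 ± 3.87 TPM in AF-low and 2.77 ± 0.666 TPM in young microglia (SD). The genes of this list that stand out here were chosen after their values were seen, as were those of the other lists.

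Of the inflammasome sensors and regulators 24 of 25 genes were tested, and in PLX5622 against AF-high microglia limma called 0, with 13 values above and 11 below 0 (median 0.03). Casp4, the mouse sensor caspase for cytosolic lipopolysaccharide, which also cuts gasdermin D, averaged 1377 ± 215 TPM in PLX5622, 2124 ± 579 TPM in AF-high, 1730 ± 201 TPM in AF-low and 1285 ± 104 TPM in young microglia (SD). Its PLX5622 minus AF-high difference was -0.59 ± 0.18 (SE; limma adjusted p = 0.133) and its AF-high minus young difference 0.68 ± 0.20 (SE; limma adjusted p = 0.234). Gbp2, an interferon-induced GTPase that acts on vacuoles and bacteria upstream of inflammasomes, averaged 41.8 ± 9.86 TPM in AF-high and 20.8 ± 2.70 TPM in young microglia (SD), a difference of 0.94 ± 0.22 (SE; limma adjusted p = 0.13). Nek7, the kinase that NLRP3 needs for assembly, showed little spread between group means, with 101 ± 4.08 TPM in PLX5622, 101 ± 20.4 TPM in AF-high, 96.6 ± 6.82 TPM in AF-low and 109 ± 7 TPM in young microglia (SD).

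Of the pyroptosis effectors and interleukin-1 outputs 12 of 14 were tested, with 0 called by limma and 4 values above and 8 below 0 in PLX5622 against AF-high microglia (median -0.22). Il1b, the cytokine released through the gasdermin pore, averaged 257 ± 25.4 TPM in PLX5622, 671 ± 457 TPM in AF-high, 625 ± 291 TPM in AF-low and 227 ± 22.2 TPM in young microglia (SD). The Il1b differences were -1.12 ± 0.40 in PLX5622 against AF-high (SE; limma adjusted p = 0.195) and 1.29 ± 0.43 in AF-high against young microglia (SE; limma adjusted p = 0.292). Ninj1, which ruptures the plasma membrane after gasdermin pores form, averaged 56.8 ± 4.92 TPM in PLX5622, 101.5 ± 26.2 TPM in AF-high, 86.7 ± 20.6 TPM in AF-low and 68.7 ± 6.17 TPM in young microglia (SD), with a PLX5622 minus AF-high difference of -0.79 ± 0.19 (SE; limma adjusted p = 0.0665).

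Of the intrinsic apoptosis genes 20 of 22 were tested, with 0 called by limma and 12 values above and 8 below 0 in PLX5622 against AF-high microglia (median 0.09). Casp2, an initiator caspase, averaged 2.01 ± 0.939 TPM in AF-low and 6.15 ± 1.66 TPM in young microglia (SD), a difference of -1.28 ± 0.30 (SE; limma adjusted p = 0.13). Its value in AF-high microglia was 4.66 ± 1.52 TPM (SD), or 0.93 ± 0.27 above AF-low on the log2 scale (SE; limma adjusted p = 0.471).

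**Figure D5:**
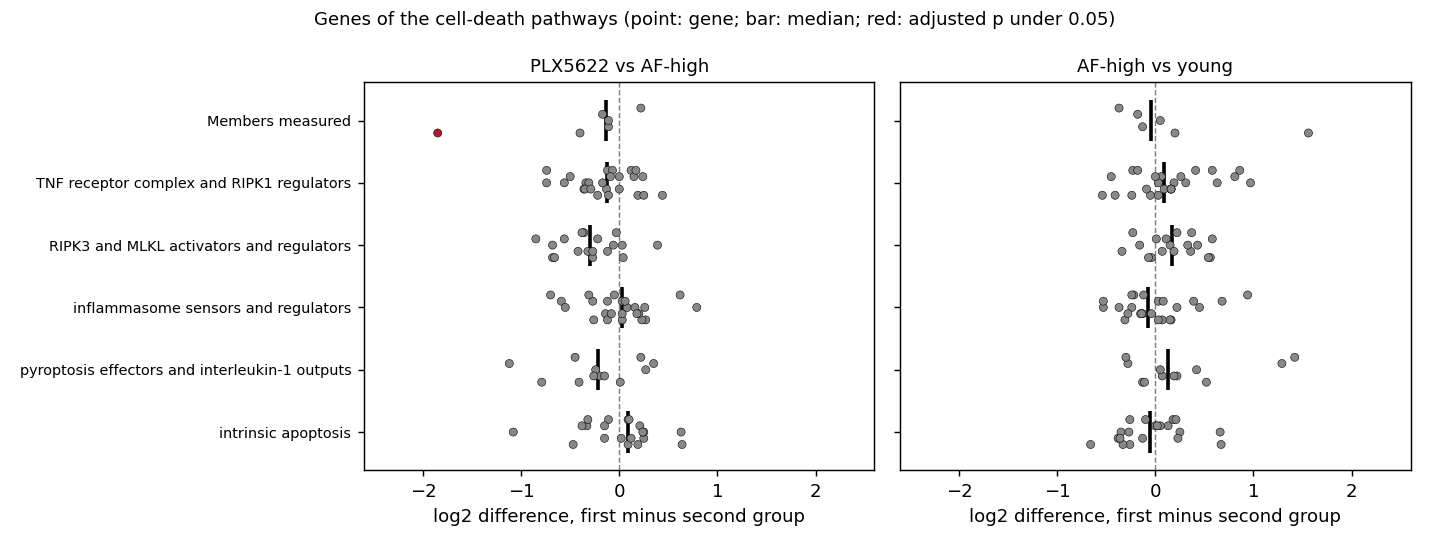
Difference of log2(TPM + 1), first minus second group (x axis), for each gene of the 5 pathway lists (y axis, 1 row of points per list) in PLX5622 against AF-high and in AF-high against young microglia (panels); bars are list medians. A further row holds the necroptosis and inflammasome genes tested. In it Ripk3 is red, the colour of an adjusted p under 0.05, in PLX5622 against AF-high microglia (-1.85, limma adjusted p = 0.0289). No gene of the 5 lists is red in either panel. In PLX5622 against AF-high microglia the list of RIPK3 and MLKL regulators has its median at -0.30.

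The genes nearest to Ripk3 in pattern were sought by the root mean square difference between profiles of log2(TPM + 1), each centred on its own mean over the 15 libraries, among 9151 genes. The nearest were Fhl3 at 0.546 and Pxn at 0.553, where the Ripk3 profile itself had a root mean square of 0.966. Fhl3 averaged 8.70 ± 1.15 TPM in PLX5622, 23.2 ± 9.37 TPM in AF-high, 24.5 ± 19.5 TPM in AF-low and 13.9 ± 2.32 TPM in young microglia (SD). Pxn averaged 56.2 ± 12.7 TPM in PLX5622, 109 ± 41.9 TPM in AF-high, 137 ± 72.0 TPM in AF-low and 61.3 ± 1.23 TPM in young microglia (SD). Both were higher on average in AF-high and AF-low than in PLX5622 microglia, with an SD in the AF-low group that was wide, as it was for Ripk3. Both were picked for their nearness to Ripk3 in these same libraries, so this likeness follows from the choice and is no independent support.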

How the data were processed

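Per the labels' protocols, sorted microglia were frozen in RNAprotect, RNA was extracted with an RNeasy kit, and cDNA was amplified with an Ovation kit ahead of low-input library preparation. The deposited table holds TPM per gene symbol and library, which the authors made with FastQC 0.11.8, Salmon 1.0.0 and DESeq2 on GRCm38 (mm10), per the submitters' processing notes. Not given in the sources used here are the filter behind the table, the annotation, the use of strand and the commands. No value in the table equalled 0, so a gene at 0 in any library could not be assessed, and the symbols of 19 lines had turned into dates. Of 13834 symbols, 13744 (99.35%) were matched to GENCODE M21, which gave gene coordinates; promoters came from RefSeq for 7 of the 8 genes.

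Genes reaching 1 TPM or more in 3 or more libraries were tested on log2(TPM + 1) with limma 3.58.1 in R 4.3.3, in 1 model over all 15 libraries with group as its sole term and eBayes with a trend. Tests were two-sided with Benjamini-Hochberg adjustment over 13175 genes, and a gene was called at an adjusted p under 0.05. Library totals ran from 956489 to 963145 TPM, and depth is unknown. The test was tried on simulated data in which each gene had the same spread in every group. AF-high and AF-low libraries were more spread than the others, so that trial does not cover this unequal spread. A log2 difference was given for each gene called and, in comparisons with none, for the gene of smallest p; other contrasts printed were chosen after their values were seen. The genes, lists and alternatives were chosen with earlier results of these data known. Python 3.11.15 and matplotlib 3.10.9 served for annotation and figures. The 25 alternatives were other pseudocounts, filters and scalings, array weights, a 2-group fit, a replicate block and libraries left out.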

Additional observations from a re-analysis of the deposited data

How the results depend on the processing

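In PLX5622 against AF-high microglia 1 of the 6 genes was called; with array weights there were 2 (Ripk3 and Casp8), with the replicate block 0, with young 1 and young 2 left aside 0, and with single libraries left out 0 to 2. In AF-high against young microglia array weights gave 1 call in place of 0 (Ripk3, 1.55, adjusted p = 0.0254, limma), and in PLX5622 against AF-low microglia leaving out single libraries gave 0 to 1 in place of 0, with Ripk3 at -1.83 without AF-low 2, -2.21 without AF-low 3 and -1.23 without AF-low 1 (limma adjusted p = 0.0444, 0.0374 and 0.234). Of the 36 differences of the 6 genes, 13 took the other sign under at least 1 alternative. As first fitted, 0 of these were called, and none was above 0.18 in size. Among those printed, Nlrp3 in AF-high against AF-low microglia was 0.01 when AF-low 1, AF-high 2 and AF-high 3 were left out together. Ripk3 in the same comparison was 0.79 in that setting (limma adjusted p = 0.434), 0.46 with array weights and -0.04 with the replicate block. With single libraries left out, this Ripk3 difference ran from -0.36 (without AF-low 3) to 0.62 (without AF-low 1). Nlrp3 in PLX5622 against young microglia was 0.06 with median-centred libraries. That Nlrp3 difference ran from -0.22 (without young 1) to 0.05 (without young 3) with single libraries left out. In the other 3 comparisons the number of the 6 genes called was 0 under all 25 alternatives. The causes were not tested. Among the pathway genes, Ticam1 in PLX5622 against AF-high microglia was called in 7 of 25 alternatives, Ninj1 in 4, Tlr4 in 2 and Il1b in 1. Gbp2 in AF-high against young microglia was called in 2, Tnf and Il1b there in 1 each, Ticam1 in PLX5622 against AF-low in 2, and Casp2 in AF-low against young microglia in 1.

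Libraries of different groups share replicate numbers, but nothing in the labels ties the numbers to an animal, and over 19 same-numbered pairs the deviations correlated between -0.08 and 0.14, with 1 over 0.1. With the replicate block, Ripk3 in PLX5622 against AF-high microglia was -1.83 ± 0.37 (limma adjusted p = 0.0963), and the number of genes called there was 0 in place of 83. Over all genes that number ran up to 441 (array weights). It ran from 0 to 398 in place of 19 in PLX5622 against AF-low, from 0 to 420 in place of 12 in PLX5622 against young, from 0 to 182 in place of 6 in AF-low against young, from 0 to 129 in place of 0 in AF-high against young and from 0 to 1 in place of 0 in AF-high against AF-low microglia.

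TPM without read numbers gives no counting error, which bears most on Ripk3, the lowest of the 6 genes. Groups of 3 to 5 libraries limit the differences that can be called. PLX5622 treatment and any handling of its libraries as a set cannot be told apart, since no batch is given in the sources used here. Against AF-high or AF-low microglia, treatment also cannot be told apart from selection by autofluorescence, as no such division is given for PLX5622 libraries. The same holds for age in the comparisons of AF-high or AF-low with young microglia.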
